A study of Danio rerio with 9 samples.

Results

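The genes chek1, topbp1 and rif1 act where DNA replication and the cell cycle are slowed in the early embryo. They were taken by gene symbol from RNA sequencing tables of whole zebrafish embryos, and each symbol matched 1 locus, giving 3 of the 30702 loci listed. The embryos were collected 3 hours after fertilization, close to the midblastula transition. There were 3 tetraploid, 3 haploid and 3 diploid (control) libraries, 9 in all. Every group came from TJH females and Tu males. The labels refer the making of haploid and tetraploid embryos to a published protocol, and do not say how many embryos were pooled or whether libraries of a group came from separate clutches. The p-values therefore measure the spread between these libraries, which may be technical.

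Before the midblastula transition the embryo divides in fast, nearly synchronous cycles that run on RNA and protein stored in the egg. The cycles then lengthen, late-replicating DNA appears, and the replication checkpoint comes into use. Chk1, the kinase encoded by chek1, restrains Cdc25 phosphatases and so keeps the cyclin-dependent kinases in check. TopBP1 activates the upstream kinase ATR and is also needed to fire replication origins, and in Xenopus embryos it is one of the replication factors that become limiting as the cycles slow. Rif1 recruits protein phosphatase 1 to chromatin and delays origin firing, and in Drosophila embryos it is needed for late replication of satellite DNA at this stage.

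On the GRCz10 build named in the submitters' processing notes, chek1 lies on chromosome 21 from 22521548 to 22528565 with 1 annotated start site. The topbp1 locus is on chromosome 24 from 9553608 to 9594734, and rif1 is on chromosome 9 from 22970149 to 22991303, with 2 start sites each. No other listed locus overlapped any of them. The nearest loci were 714 bases away for chek1, 4063 for topbp1 and 1204 for rif1, and the neighbours on either side had at most 0.563 FPKM in any library. FPKM counts fragments per kilobase of transcript and per 1e+06 mapped fragments, so levels can be compared between genes.

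Depth was not stated in the sources used here. Read as counting error of 2 standard deviations to either side, the deposited intervals implied 479.3 to 833.8 fragments per library for chek1, 933 to 1281 for topbp1 and 2475 to 3320 for rif1. One library stood apart before any comparison. Tetraploid replicate 3 had correlations of 0.916 to 0.930 with the other libraries over the tested genes, against 0.950 to 0.985 among the other 28 pairs. Mitochondrial loci took 14.7% of its summed FPKM, against 18.2% to 26.7% in the others, and its scale factor was 0.801, against 1.01 to 1.06. This library had the fewest loci with an FPKM of at least 1, 5395 against 5809 to 5921. The median of implied fragments over such loci was also lowest in it, 215.6 against 259.3 to 428.1. Results are therefore also given without it. Diploid replicate 1 had the highest summed level of the 23 early zygotic loci, 148.4 scaled FPKM against 7.19 to 54.1 in the other libraries. It also had the highest sum of the enveloping layer markers (14.9 against 0.341 to 1.53, 6 loci) and of the yolk syncytial layer markers (20.4 against 0.412 to 6.48, 8 loci). In it 4 loci of each list were at 0. Only grhl3 of the enveloping layer and apoeb and mxtx2 of the yolk syncytial layer were among the tested genes. Both apoeb and mxtx2 are also counted in the early zygotic sum, so these sums are not separate. Among the markers of both layers, krt4, krt5 and cldne of the enveloping layer and mxtx1, hnf1ba, hnf4a and slc26a1 of the yolk syncytial layer were listed at 0 in all libraries. All of these but hnf4a, and dnd1 below, lie in a part of the annotation numbering where almost no locus had signal, so their zeros are not read as absence. Of the 23 early zygotic loci 9 were listed at 0 in all libraries. As 9 of the 23 lie in that part of the numbering, zeros there are likewise not read as absence. The summed germ plasm markers (10 loci, of which 6 lie there and dnd1 was listed at 0 throughout) ranged from 442.9 to 577.6 in tetraploid, 529 to 561.8 in haploid and 509.5 to 551.4 in diploid libraries.

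The 3 transcripts were present in every library, at levels that differed between genes. The level of rif1, in scaled FPKM, ranked between 341 and 483 from the top of the 5864 tested genes. The level of chek1 ranked between 1027 and 1811, and that of topbp1 between 1741 and 2562. The order of the 3 genes by scaled FPKM (rif1, then chek1, then topbp1) was the same in all 9 libraries.

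The kinase gene chek1 had 33, 43.5 and 51.9 scaled FPKM in tetraploid replicates 1, 2 and 3. It had 29.8, 25.8 and 29.5 in haploid replicates and 30.0, 30.9 and 28.9 in diploid replicates. All 3 tetraploid libraries were above every haploid and diploid library, while haploid and diploid libraries overlapped. The lowest tetraploid library was the least separated: its deposited interval, scaled, ran from 30.5 to 35.6, and that of diploid replicate 2 from 28.5 to 33.2. The interval of this tetraploid library also overlapped those of diploid replicates 1 and 3 and haploid replicates 1 and 3. The intervals of tetraploid replicates 2 and 3, 40.5 to 46.5 and 47.8 to 56.1, lay above all of those in haploids and diploids. By mean, the order was tetraploid (42.8 ± 9.47), diploid (29.9 ± 0.972) and haploid (28.3 ± 2.26 scaled FPKM, SD, n = 3 each), and diploids and haploids did not differ beyond their spread.

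The ATR activator gene topbp1 had 21.6, 18 and 26.8 scaled FPKM in tetraploid replicates 1, 2 and 3. It had 17.9, 16.7 and 16.9 in haploids, and 18, 18.1 and 15.2 in diploids. Tetraploid replicate 2 lay among the diploid libraries, so these groups overlapped, while all tetraploid libraries were above all haploid ones. The means were 22.2 ± 4.42 in tetraploids, 17.2 ± 0.631 in haploids and 17.1 ± 1.65 in diploids (SD, n = 3 each). Haploids and diploids did not differ beyond their spread.

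The replication timing gene rif1 had 103.6, 111.3 and 130.1 scaled FPKM in tetraploid replicates 1, 2 and 3. It had 103.5, 113.7 and 109.2 in haploids, and 97.7, 96.6 and 98.7 in diploids. Here the diploid libraries were lowest: all tetraploid and all haploid libraries lay above all diploid ones, and tetraploids and haploids overlapped. The means were 115 ± 13.6 in tetraploids, 108.8 ± 5.11 in haploids and 97.7 ± 1.05 in diploids (SD, n = 3 each). Tetraploids and haploids did not differ beyond their spread. The scaled interval of the lowest haploid library, 99.8 to 107.2, overlapped that of the highest diploid library, 94.9 to 102.5.

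**Figure D1:**
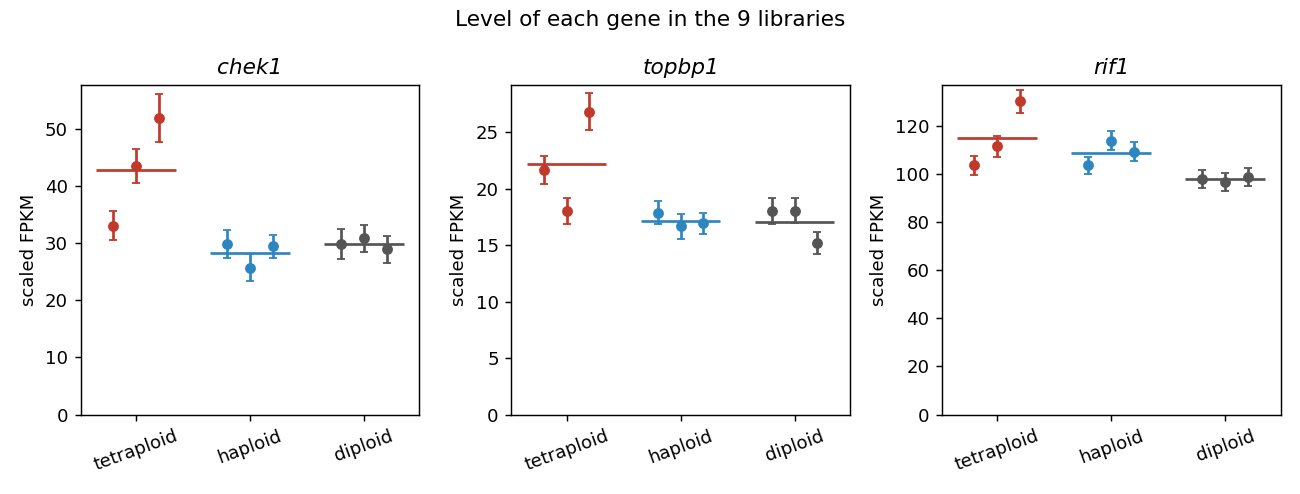
Scaled FPKM (vertical axes, starting at 0) of chek1, topbp1 and rif1 in tetraploid, haploid and diploid libraries, with replicates 1 to 3 from left to right; points are libraries, bars the deposited intervals after scaling and lines the group means. The tetraploid chek1 points run from 33 to 51.9, above all other chek1 points, and the 3 diploid rif1 points lie close together between 96.6 and 98.7.

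Replicates were tighter in diploids than in tetraploids for each gene. The coefficient of variation between libraries of chek1 was 22.1% in tetraploids, 7.96% in haploids and 3.25% in diploids. The counting error implied by the intervals was 3.78%, 4.06% and 4.09% in the same groups, so the diploid spread of chek1 was below what the intervals imply. A spread estimated from 3 libraries is imprecise, and its difference from the counting error was not tested for any gene. For rif1 the spread was 11.9% in tetraploids, 4.70% in haploids and 1.08% in diploids, against counting errors of 1.90%, 1.78% and 1.95%. For topbp1 it was 19.9%, 3.68% and 9.68% in tetraploids, haploids and diploids, against 3.08%, 2.97% and 3.15%. A wider tetraploid spread was not particular to these genes: over the 3152 tested genes with a mean of at least 10 scaled FPKM, the median coefficient of variation was 20.8% in tetraploids, 11.8% in haploids and 10.5% in diploids. Of these genes 53.0% had a smaller tetraploid spread than chek1, and 0.793% had a smaller diploid spread than rif1.

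The tetraploid spread was smaller before scaling, where tetraploid replicate 3 is not raised by its scale factor. In FPKM as deposited, chek1 had 34.6, 45.6 and 41.6 in tetraploids, 30.9, 26.0 and 30.5 in haploids, and 31.6, 31.8 and 30.5 in diploids. The tetraploid coefficient of variation was then 13.7% for chek1, 9.13% for topbp1 and 5.76% for rif1. Tetraploid replicate 2, not replicate 3, was the highest library for chek1 and rif1 on this scale. The deposited rif1 values were 108.4, 116.6 and 104.2 FPKM in tetraploids and 103.2, 99.6 and 103.9 in diploids, so the lowest tetraploid and the highest diploid library differed by less than the interval of a single library (100.4 to 107.9 in tetraploid replicate 3).

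**Figure D2:**
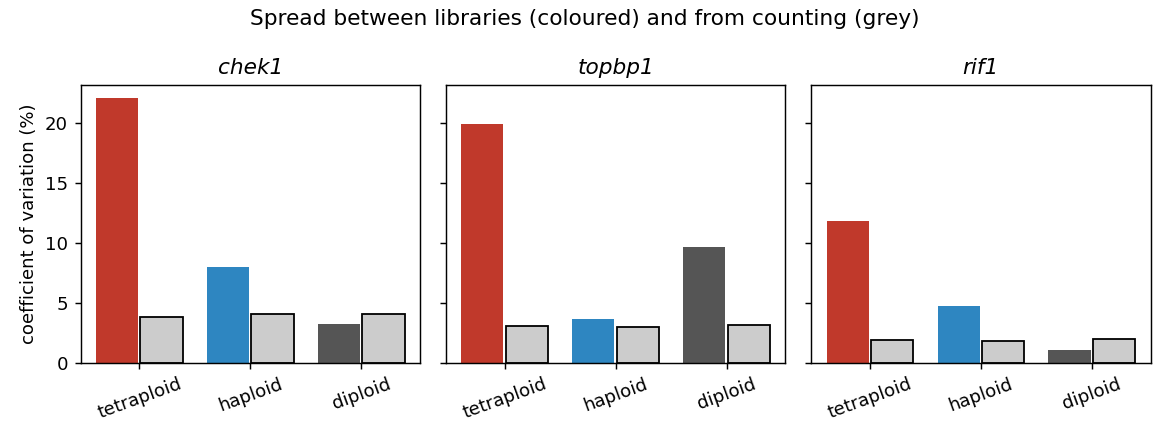
Coefficient of variation in percent (vertical axis, starting at 0) of scaled FPKM between the 3 libraries of each ploidy (coloured bars) and the counting error implied by the deposited intervals (grey bars, root mean square over the 3 libraries). For chek1 the bars are 22.1% and 3.78% in tetraploids and 3.25% and 4.09% in diploids.

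The first comparison asked whether transcripts of the 3 genes differ in embryos with a doubled genome. All 3 averaged higher in tetraploid than in diploid embryos, and 0 of 3 passed the test across all genes. The log2 difference of chek1 was 0.48 (SE 0.170, 95% interval 0.0996 to 0.861, or 1.40-fold; limma adjusted p = 0.832). For topbp1 it was 0.34 (SE 0.168, interval -0.0329 to 0.722; adjusted p = 0.832), and for rif1 0.23 (SE 0.121, interval -0.0432 to 0.498; adjusted p = 0.832). These SE and intervals use an estimate of spread shared by the 3 ploidies, of which tetraploids varied most. In a fit of tetraploids and diploids alone the SE was 0.190 for chek1, 0.193 for topbp1 and 0.142 for rif1. The adjusted p given above is over 5864 genes in 1 limma fit of log2(scaled FPKM + 1), called at 0.05. The fold changes slightly understate changes of low genes. Of all genes 0.0171% were called in this comparison, which is 1 gene, ankdd1a. It is named here only because it is the gene behind that count, and was chosen after its values were seen. The groups of chek1 and rif1 did not overlap, 2 of 3 genes, where 5.51% of tested genes were higher in all tetraploid libraries than in all diploid ones and 6.02% lower. None of the 3 was lower. An exact permutation test of 3 against 3 libraries cannot go below a two-sided p of 0.1, which chek1 and rif1 reached, and topbp1 had 0.2. In bulk embryos, a different share of cells holding an RNA and a different amount of that RNA per cell cannot be told apart.

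Of all tested genes, 96.3% had a smaller tetraploid minus diploid difference than chek1, 91.2% than topbp1 and 81.7% than rif1. Without tetraploid replicate 3 the log2 differences were 0.33 for chek1, 0.20 for topbp1 and 0.14 for rif1 (limma adjusted p = 0.966 for each). That library had a chek1 level 0.72 log2 units above the mean of the other 8, and 90.3% of tested genes deviated less upward or deviated downward in it. Without tetraploid replicate 1 the log2 difference of chek1 was 0.65 (limma adjusted p = 0.588). Without diploid replicate 1, the library rich in early zygotic RNA, it was 0.48, as large as with it. Taken by replicate number, the tetraploid minus diploid log2 difference of chek1 was 0.14, 0.48 and 0.82 for numbers 1, 2 and 3. It was positive for rif1 in each (0.08, 0.20 and 0.39). For topbp1 it was 0.25, -0.0020 and 0.78.

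The second comparison asked the same of embryos with a single genome set. The 3 differences did not share a sign in haploids, each interval included 0, and 0 of 3 passed. The log2 difference of rif1 from diploids was 0.15 (SE 0.121, 95% interval -0.118 to 0.423; limma adjusted p = 1.00). For chek1 it was -0.08 (SE 0.170, interval -0.459 to 0.303) and for topbp1 0.01 (SE 0.168, interval -0.367 to 0.387), each with an adjusted p of 1.00 by limma. Of all genes 0% were called by limma, with 81 at an unadjusted p under 0.05. Only the rif1 groups did not overlap, 1 of 3 genes, where 4.67% of tested genes were higher in all haploid libraries and 3.92% lower. The exact permutation p was 0.1 for rif1, the smallest possible, 0.4 for chek1 and 1 for topbp1. These intervals use an estimate of spread shared with the tetraploid libraries. They still allow haploid levels of chek1 from 0.728 to 1.23 times those in diploids, and of rif1 from 0.922 to 1.34 times. In a fit of haploids and diploids alone the SE was 0.102 for chek1, 0.119 for topbp1 and 0.0804 for rif1. Leaving out tetraploid replicate 3 can act on this comparison only through the scaling and the shared spread. The log2 differences were then -0.08 for chek1, 0.0072 for topbp1 and 0.15 for rif1. Their limma adjusted p was 0.953, 0.994 and 0.941.

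The third comparison set tetraploid against haploid embryos, the ends of the ploidy series. It shares its libraries with the comparisons above and is no separate evidence. The log2 difference was 0.56 for chek1 (SE 0.170, 95% interval 0.178 to 0.939, 1.47-fold; limma adjusted p = 0.549). It was 0.33 for topbp1 (SE 0.168, interval -0.0429 to 0.712; limma adjusted p = 0.662) and 0.07 for rif1 (SE 0.121, interval -0.196 to 0.345; limma adjusted p = 0.875). None of the 3 passed, where 0.0171% of all genes did. The groups of chek1 and topbp1 did not overlap, where 7.2% of tested genes were higher in all tetraploid libraries and 6.53% lower, and their exact permutation p was 0.1, against 0.6 for rif1. Without tetraploid replicate 3 the differences were 0.41 for chek1, 0.20 for topbp1 and -0.0133 for rif1. In a fit of tetraploids and haploids alone the SE was 0.199 for chek1, 0.191 for topbp1 and 0.146 for rif1.

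**Figure D3:**
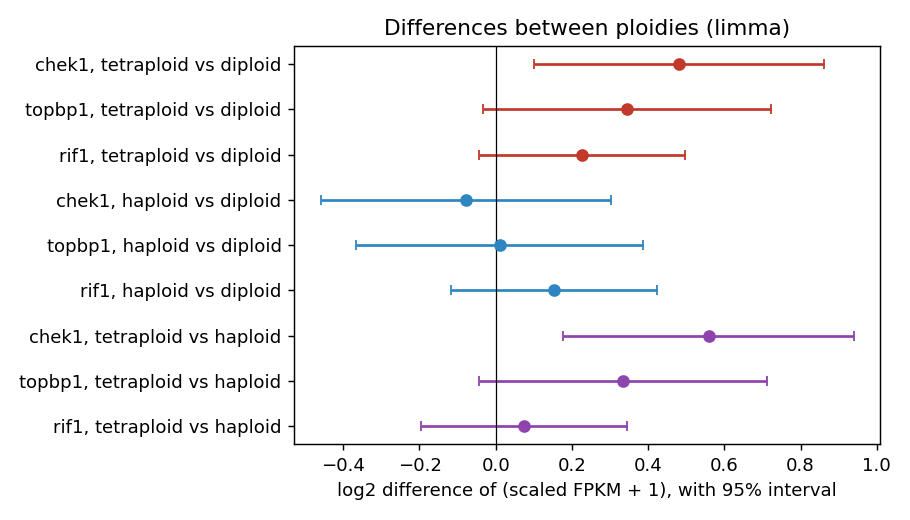
Log2 difference of (scaled FPKM + 1) with its 95% interval by limma (horizontal axis) for each gene and comparison. The intervals use an estimate of spread shared by all ploidies. The intervals of chek1 lie above 0 in both comparisons with tetraploids (0.0996 to 0.861 and 0.178 to 0.939), those of the other pairs include 0, and none passes after adjustment over all genes.

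In the authors' deposited tables, which give 1 pooled FPKM per ploidy, the same directions were seen for tetraploids. These pooled values come from the same series and are no separate evidence. Their scale differs from that of the single libraries, where chek1 averaged 40.6 FPKM as deposited in tetraploids. For chek1 the authors' deposited tables had 102.6 FPKM in tetraploids, 67.8 in haploids and 70.7 in diploids in the first table, and 106 in tetraploids, 70.6 in haploids and 65.5 in diploids in the second. The tetraploid over diploid ratio in the authors' deposited tables was 1.45 and 1.62 for chek1, 1.35 and 1.52 for topbp1, and 1.21 and 1.35 for rif1. The haploid over diploid ratio of chek1 was 0.960 in the first and 1.08 in the second of the authors' deposited tables, on opposite sides of 1. In the authors' deposited tables this ratio was above 1 both times for topbp1 (1.03 and 1.16) and rif1 (1.14 and 1.28). The intervals in the first of the authors' deposited tables overlapped for chek1, at 56.1 to 149.1 in tetraploids and 48.0 to 93.3 in diploids.

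A ratio of 2 genes within a library does not depend on scaling. The ratio of chek1 to rif1 was 0.319, 0.391 and 0.399 in tetraploid replicates, 0.288, 0.227 and 0.270 in haploids, and 0.307, 0.320 and 0.293 in diploids. Haploid libraries were all below diploid and tetraploid ones in this ratio, and tetraploid replicate 1 lay just below diploid replicate 2. The mean ratio was 0.370 ± 0.0441 in tetraploids, 0.262 ± 0.0317 in haploids and 0.307 ± 0.0132 in diploids (SD, n = 3 each). The exact permutation p was 0.2 for tetraploids against diploids and 0.1 for haploids against diploids and for tetraploids against haploids, each 0.45 when adjusted over the 9 ratio comparisons. The ratio of chek1 to topbp1 was 1.53, 2.41 and 1.94 in tetraploids, 1.67, 1.55 and 1.74 in haploids, and 1.66, 1.71 and 1.91 in diploids. Its groups overlapped in every comparison (exact permutation p from 0.4 to 0.6). The ratio of topbp1 to rif1 also overlapped in every comparison, with means of 0.192 ± 0.0263 in tetraploids, 0.158 ± 0.0133 in haploids and 0.175 ± 0.0185 in diploids (SD, n = 3 each).

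Across the 9 libraries chek1 and topbp1 were ordered alike. Spearman's rho was 0.933 (exact permutation p = 0.00075, adjusted p = 0.00225 over the 3 pairs of genes). Pearson's r of their log2 levels was 0.777 (exact permutation p = 0.0198, adjusted p = 0.0593). Without tetraploid replicate 2 alone r was 0.916 (exact permutation p = 0.00300). Leaving out the 2 libraries farthest from the median of chek1, tetraploid replicates 2 and 3, r was 0.722 (exact permutation p = 0.0671). Without tetraploid replicate 3 alone rho was 0.905 (exact permutation p = 0.00456) and r was 0.390 (exact permutation p = 0.285). The r therefore depended on which of these libraries were included. Of these omissions, rho was computed only for that of tetraploid replicate 3. The permutations mixed libraries of all ploidies. Their p does not separate a shared difference between ploidies from likeness within a ploidy. With each group's mean removed r was 0.450, a value given with no test. For chek1 and rif1, r was 0.666 and rho 0.183 (exact permutation p = 0.0569 and 0.644, adjusted p = 0.0722 and 0.744). For topbp1 and rif1, r was 0.640 and rho 0.133 (exact permutation p = 0.0722 and 0.744, both unchanged by adjustment). Without tetraploid replicates 2 and 3, the 2 farthest by chek1, the r of chek1 and rif1 was -0.575 (exact permutation p = 0.182). Without tetraploid replicates 1 and 3, the 2 farthest by topbp1, the r of topbp1 and rif1 was -0.0193 (exact permutation p = 0.966). The r of each pair with rif1 therefore depended on which libraries were included. With group means removed r was 0.698 for chek1 and rif1 and 0.485 for topbp1 and rif1. In FPKM as deposited the r of chek1 with rif1 was 0.0984 (exact permutation p = 0.794), and the r of chek1 with topbp1 was 0.575 and rho 0.833 (exact permutation p = 0.0988 and 0.00827).

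The loci most like each gene were taken as the 3 with the highest Pearson r over the 9 libraries, of 5702 with a single symbol. This ranking is a description, since all loci share the libraries and their scaling. For chek1 they were rangrf, which encodes a factor that binds the Ran GTPase (r = 0.957), a locus named only by its clone (0.954) and tdg.2, a thymine DNA glycosylase gene (0.949). The rangrf level followed chek1 closely, at 32.5, 46.1 and 51.1 scaled FPKM in tetraploids, 27.0, 25.8 and 24.6 in haploids and 28.5, 31.0 and 30.9 in diploids. For topbp1 they were the F-box gene fbxo32 (0.977), naa15b of the N-terminal acetyltransferase complex (0.970) and the ubiquitin ligase gene rnf40 (0.959). For rif1 they were rnls (0.961), the phosphatase gene ctdspl2a (0.957) and the ubiquitin ligase gene znrf3 (0.947). Among all loci topbp1 ranked 266 for chek1, and rif1 ranked 636. Each of the 9 loci had its highest scaled level in tetraploid replicate 3, as chek1, topbp1 and rif1 did. Without that library rangrf ranked 7 for chek1, fbxo32 ranked 9 for topbp1 and rnls ranked 7 for rif1. For chek1, topbp1 then ranked only 1280 (r = 0.390) and rif1 only 2258 (r = 0.154).

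The other genes of the pathway were described from 4 lists. These were checkpoint sensors and activators, checkpoint targets and cell cycle drivers, genes of origin firing and the replication fork, and Rif1 partners with genes of repair choice. Of their 98 loci in the files 45 were tested. A further 52 lie in the part of the annotation numbering almost without signal, and are treated as unmeasured, and 1 in the other part was below the filter on low values. The kinase genes atr, chek2, wee1 and pkmyt1, the clamp and loader genes rad1, rad9a and rad17, and cdc25b, cdc25d and cdc45 are among the unmeasured. No level is given for them. Of the 45 tested, 0 passed in any comparison by limma (0.0171% of all genes with tetraploids and 0% for haploids against diploids).

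In tetraploids against diploids, 31 of the 45 had a positive difference, where 49.5% of all tested genes did. The genes described below for this comparison were picked by smallest p, and all averaged higher in tetraploids. The largest log2 difference in any list was negative, -1.10 for pold2 of the origin and fork list. Also negative were prim1 (-0.28), ccnb2 (-0.26) and rfc5 (-0.22). The medians were 0.06 log2 units over 8 sensors and activators, 0.12 over 10 targets and drivers, 0.12 over 19 origin and fork genes and 0.02 over 8 Rif1 partner and repair genes, against -0.0043 over all genes. With FPKM as deposited these medians were -0.06, -0.0062, 0.01 and -0.10, where the median of all genes was -0.11. Without tetraploid replicate 3 they were 0.14, 0.13, 0.12 and 0.13. Tipin, which with Timeless holds the fork together and helps activate Chk1, had 167.7, 170.6 and 252 scaled FPKM in tetraploids, against 159.4, 138.3 and 154.9 in diploids. Its partner gene timeless had 46.9 ± 17.2 in tetraploids and 36.8 ± 1.15 in diploids, with 66.6 in tetraploid replicate 1. The helicase subunit gene mcm5 had 81.7, 66.7 and 135.1 in tetraploids, against 65.1, 64.0 and 66.1 in diploids. The flap endonuclease gene fen1 averaged 171.6 ± 18.4 in tetraploids and 141.4 ± 2.55 in diploids. Tetraploid libraries were above all diploid ones in tipin, mcm5 and fen1, 3 of the 45 genes (5.51% of all tested genes). They were below all diploid ones in 0 of the 45 (6.02% of all tested genes).

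Further named genes of the lists overlapped between tetraploids and diploids. The mitotic kinase gene plk1 averaged 620.7 ± 128.9 scaled FPKM in tetraploids and 489.8 ± 50.2 in diploids. The gene of the Tousled-like kinase tlk2, of a family that Chk1 phosphorylates in human cells, averaged 105.8 ± 25.9 in tetraploids and 84.3 ± 6.14 in diploids. The RecQ helicase gene blm averaged 6.65 ± 0.462 in tetraploids and 5.50 ± 1.20 in diploids. The gene tp53bp1, whose protein recruits Rif1 to DNA breaks, averaged 67.4 ± 3.20 in tetraploids and 59.5 ± 7.94 in diploids (SD, n = 3 each).

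In haploids against diploids, 23 of the 45 were positive, where 48.8% of all genes were. The medians were 0.05, -0.07, -0.0004 and 0.04 over the lists in the same order, against -0.0054 over all genes. Without overlap, 2 of the 45 were higher and 3 lower in haploids, where 4.67% and 3.92% of all tested genes were. Cyclin B3, ccnb3, had the smallest p among the listed genes, with 8.01, 5.21 and 8.28 scaled FPKM in haploids, against 11.8, 11.5 and 9.58 in diploids (log2 -0.57, SE 0.195, limma adjusted p = 1.00). The end resection gene rbbp8 averaged 9.26 ± 6.20 in haploids and 15.1 ± 0.916 in diploids, with 2.11 in haploid replicate 2. The mcm5 level was 77.4 ± 4.86 in haploids and 65.0 ± 1.03 in diploids, with groups that did not overlap. The GINS subunit gene gins1 averaged 59.9 ± 5.08 in haploids and 51.9 ± 6.55 in diploids, and tlk1a 66.8 ± 4.60 in haploids and 61.2 ± 6.59 in diploids. The second ATR activator gene etaa1 averaged 9.68 ± 2.21 in haploids and 11.7 ± 2.22 in diploids. The replication protein A subunit gene rpa3 averaged 259.8 ± 8.35 in haploids and 291.7 ± 30.4 in diploids, and blm 4.69 ± 0.172 in haploids and 5.50 ± 1.20 in diploids (SD, n = 3 each).

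In tetraploids against haploids, ccnb3 averaged 12.1 ± 0.945 scaled FPKM in tetraploids and 7.17 ± 1.70 in haploids (log2 0.71, SE 0.195, limma adjusted p = 0.549). The polymerase alpha gene pola1 averaged 21.6 ± 7.15 in tetraploids and 13.9 ± 0.989 in haploids, and fen1 171.6 ± 18.4 in tetraploids and 131.7 ± 10.1 in haploids. For plk1 the means were 620.7 ± 128.9 in tetraploids and 447.5 ± 7.15 in haploids, and for rpa3 320.4 ± 45.0 in tetraploids and 259.8 ± 8.35 in haploids. For blm they were 6.65 ± 0.462 in tetraploids and 4.69 ± 0.172 in haploids, and for rbbp8 15.6 ± 1.5 in tetraploids and 9.26 ± 6.20 in haploids (SD, n = 3 each). These 6 genes did not overlap between the groups, and neither did ccnb3. The etaa1 means, 14 ± 2.64 in tetraploids and 9.68 ± 2.21 in haploids, came from groups that did. In this comparison 8 of the 45 genes were higher in all tetraploid libraries and 0 lower, where 7.2% and 6.53% of all tested genes were. A positive difference was seen in 26 of the 45, where 49.1% of all tested genes had one. The largest log2 difference in any list was again negative, -1.12 for pold2. The medians over the lists, in the order above, were 0.12, 0.15, 0.16 and -0.09 log2 units, against -0.0055 over all genes. Of the 8 Rif1 partner and repair genes 5 had a negative difference. Without tetraploid replicate 3 the list medians were 0.12, 0.02, 0.08 and 0.08.

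**Figure D4:**
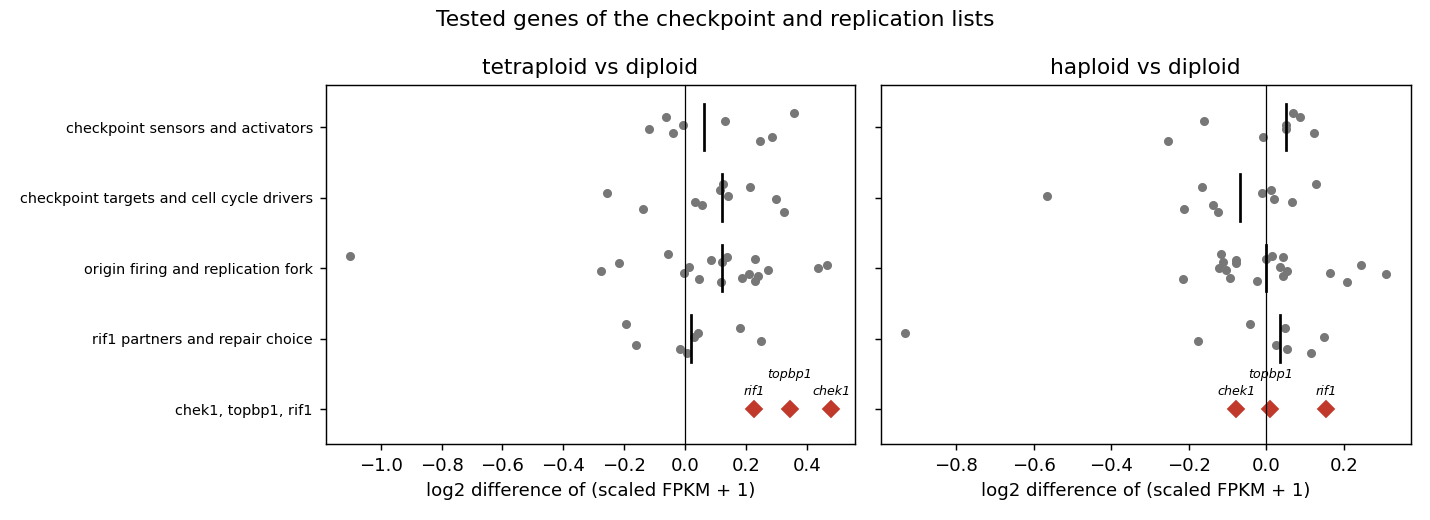
Log2 difference of (scaled FPKM + 1) for each tested gene of the 4 lists (grey points, black bars at the medians) and for chek1, topbp1 and rif1 (red diamonds), tetraploid against diploid on the left and haploid against diploid on the right. On the left chek1 lies at 0.48, beside list medians of 0.06, 0.12, 0.12 and 0.02, and on the right at -0.08.

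**Figure D5:**
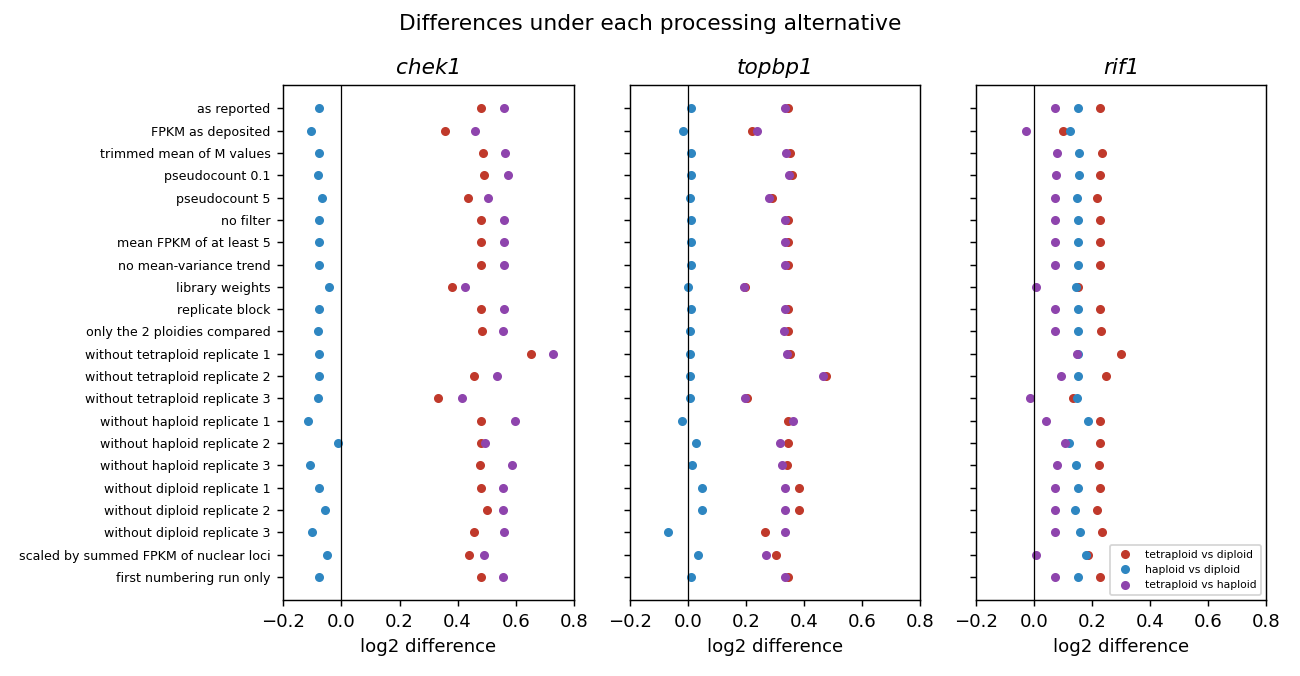
Log2 difference of each gene (horizontal axes) in the 3 comparisons under every processing alternative (rows), with the reported value in the top row. The tetraploid against diploid points of chek1 run from 0.33 to 0.65 and never cross 0, while those of rif1 in tetraploids against haploids run from -0.0262 to 0.147.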

How the data were processed

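The deposited library tables hold FPKM with interval bounds, 1 table per library. Per the submitters' processing notes, the tools were HISAT2, Cufflinks, Cuffdiff, FastQC and Trim Galore, on GRCz10. The sources used here do not give the annotation, strand setting, depth or tool versions. The authors also deposited a pair of tables with pooled FPKM for each ploidy.

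FPKM were divided by median-of-ratios factors. The 5864 loci with a mean scaled FPKM of at least 1 were tested as log2(scaled FPKM + 1) with limma 3.58.1 in R 4.3.3 (trended variance, 1 fit over the 9 libraries with 6 residual degrees of freedom, Benjamini-Hochberg adjustment, two-sided), after leaving out 5 loci with a failed status. Locus numbers restart once along every chromosome. A mean FPKM of 1 or more was reached by 44 of 15537 loci in the second run and 5842 of 15165 in the first. Other loci of the second run were treated as unmeasured. Permutation tests were exact and two-sided. The fit was tested on simulated data.

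The 3 genes, the lists and the tests were chosen with earlier results of these data known. Besides the 3 genes, the text names, per list and comparison, members that passed or otherwise the 2 with the smallest p, and the 3 loci most correlated with each gene. The listed genes pold2, prim1, ccnb2 and rfc5 were named after their values were seen. Replicate numbers follow accession order. No protein or promoter sequence was used here.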

Additional observations from a re-analysis of the deposited data

How the results depend on the processing

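For chek1, topbp1 and rif1, 184 of 189 alternative values (21 for each gene and comparison) kept their direction and none passed 0.05 by limma (adjusted p from 0.320 to 1.00). The filter settings, the fit without a variance trend and the replicate block could not change a difference of group means. That of chek1 in tetraploids against diploids stayed at 0.48 in each. Leaving out a library of the ploidy not compared alters a difference only through the scaling. The 189 values are therefore not separate checks of direction. In tetraploids against diploids the log2 difference ranged from 0.33 to 0.65 for chek1, from 0.20 to 0.48 for topbp1 and from 0.0998 to 0.30 for rif1, lowest for rif1 with FPKM as deposited. The other 5 values had the opposite sign, and the cause was not tested. For topbp1 in haploids against diploids they were -0.0156 with FPKM as deposited, -0.0191 without haploid replicate 1 and -0.0687 without diploid replicate 3. For rif1 in tetraploids against haploids they were -0.0262 with FPKM as deposited and -0.0133 without tetraploid replicate 3. Over single libraries left out, the log2 difference of topbp1 in haploids ranged from -0.0687 to 0.0485, and that of rif1 in tetraploids against haploids from -0.0133 to 0.147.

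The count of genes called in tetraploids against diploids, 1 as reported, was 0 with FPKM as deposited, with a pseudocount of 5, with the replicate block and in a fit of the 2 ploidies compared, and 3 with no filter. In tetraploids against haploids it was 0 with the replicate block and with the 2 ploidies compared. Over single libraries left out it ranged from 0 to 1 in each comparison, and the 1 gene called without diploid replicate 1, in tetraploids and in haploids against diploids, was dut and not ankdd1a. Of 120 alternative list medians 94 moved by less than the spread between replicates and 26 by more.

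With the replicate block the log2 difference of chek1 in tetraploids against diploids was 0.48 (limma adjusted p = 0.843). Equal replicate numbers are also consecutive library numbers. Deviations from group means correlated by -0.110 to 0.234 between same-numbered libraries. The labels do not state a pairing, and these correlations cannot show whether same-numbered libraries share a clutch or day. The r of topbp1 and rif1 was -0.152 with FPKM as deposited and -0.0375 without tetraploid replicate 3. Over single libraries left out, r ranged from 0.390 to 0.916 for chek1 and topbp1 (adjusted exact permutation p from 0.00900 to 0.856). That p was under 0.05 only without tetraploid replicate 1 (0.0362), tetraploid replicate 2 (0.00900) or haploid replicate 2 (0.0448). The r ranged from 0.154 to 0.871 for chek1 and rif1, and from -0.0375 to 0.745 for topbp1 and rif1. For each of these pairs the adjusted exact permutation p went up to 0.929. Both upper values of r were without haploid replicate 2, the only omission with an adjusted p under 0.05 (exact permutation, 0.0320 and 0.0498). A further pair of alternatives was chosen after seeing the data, scaling by the summed FPKM of nuclear loci (chek1 0.44 in tetraploids against diploids) and first-run loci alone (0.48). The 3 libraries a group limit what could be detected.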
